A study of Mus musculus with 5 samples.

Results

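The data described here are the RNA levels of 10 intercalated cell acid-base genes, Slc4a1, Slc26a4, Atp6v1b1, Atp6v0d2, Atp6v1g3, Foxi1, Slc4a9, Rhcg, Rhbg and Insrr, chosen by gene symbol from the 35478 genes listed for each kidney. All 10 were among the 16394 genes with enough counts to be tested. Kidney RNA came from 2 Prdm16fl/fl mice, numbered 1 and 3 in the sample labels, and 3 Ksp-Cre/Prdm16fl/fl mice, numbered 1, 2 and 3, with 1 library per mouse. They are called control kidneys 1 and 3 and Cre kidneys 1, 2 and 3 from here on. The mice were males aged 7 to 8 weeks. The labels give their strain as C57BL/6J;129 in one field and as C57BL/6J in the sample titles, and the methods name the cortex as the tissue. Every mouse, controls included, carried 2 floxed Prdm16 alleles and had unilateral ischemia-reperfusion injury (UIRI). In this model the artery and vein of the left kidney were clamped for 35 minutes at 38.5°C, the right kidney was removed at day 10, and the mice were killed 24 hours later, at day 11. The controls carried no Cre, and no library of a sham-operated kidney was analysed here. Ksp-Cre is driven by the promoter of Ksp-cadherin (Cdh16), a gene of tubular epithelium that is not limited to intercalated cells, and it removes exon 9 of Prdm16. The genotype contrast therefore asks how the acid-base genes of the injured kidney stood when Prdm16 was floxed with or without tubular Cre.

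Intercalated cells lie among the principal cells of the connecting tubule and collecting duct and set the final acid-base content of urine. A V-type proton pump (V-ATPase), built in part from subunits that few other cells use, moves protons across their membranes. Type A cells secrete acid into urine and return bicarbonate to blood through the anion exchanger AE1 (Slc4a1). Type B cells do the reverse with pendrin (Slc26a4) at the urinary side. The forkhead factor Foxi1 is required for the intercalated fate, and the Rh glycoproteins Rhcg and Rhbg carry ammonia, the main buffer by which the kidney excretes acid.

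Libraries held between 14939040 and 16425161 counted reads, and the 10 genes had from 17 to 2917 counts per library. Cre kidney 3 stood apart from the other libraries. Its log2 levels correlated across genes at 0.934 to 0.953 with the other 4 libraries, while Cre kidneys 1 and 2 correlated at 0.990 and the controls at 0.986. Results that this kidney changed are therefore also given without it. Prdm16 itself had 25.3 and 20.02 counts per 1000000 scaled counts (CPM) in control kidneys 1 and 3, and 17.1, 17.0 and 18.0 CPM in Cre kidneys 1, 2 and 3. The difference did not pass the test (log2 fold change -0.38, adjusted p = 0.259), and a count over the whole gene cannot show whether exon 9 was lost. Kidney tubule RNA was present in every library, such as Umod of the thick ascending limb at 799 to 2772 CPM. Not every tubule marker was, since Pvalb of the distal convoluted tubule had 0 counts in Cre kidney 3.

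The acid-base genes were lower in the Cre kidneys, by amounts that differed widely among them. All 10 had a log2 fold change below 0, compared with 46.0% of all genes tested. In 9 of the 10, every Cre kidney lay below both control kidneys, compared with 21.3% of all genes. Their median log2 fold change was -1.10, against 0.038 over all genes. These comparisons with all genes are descriptions and no test, since the 10 were chosen with earlier results of these data known. In single kidneys, the median of the 10 genes relative to the control mean was 0.15 and -0.15 on the log2 scale in control kidneys 1 and 3, and -0.70, -1.10 and -1.4997 in Cre kidneys 1, 2 and 3.

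A gene was called when its Benjamini-Hochberg adjusted p in edgeR's quasi-likelihood test was under 0.05 and it differed between the groups by 1 or more on the log2 scale. Only Slc4a9 of the 10 was called lower, and 0.628% of all genes were. None of the 10 was called higher, as were 0.0793% of all genes. At an unadjusted p under 0.05, 6 of the 10 were lower, against 11.2% of all genes. DESeq2, run as an alternative, called 4 of the 10 lower, Slc26a4, Slc4a9, Rhcg and Insrr, and 2.47% of all genes. Slc4a9 lost its call when library totals replaced TMM scaling (adjusted p = 0.0693) and when any library other than Cre kidney 3 was left out, with adjusted p between 0.123 and 0.496 in those fits. In RNA of kidney cortex, which mixes cell types, fewer intercalated cells and less RNA per cell cannot be told apart.

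**Figure D1:**
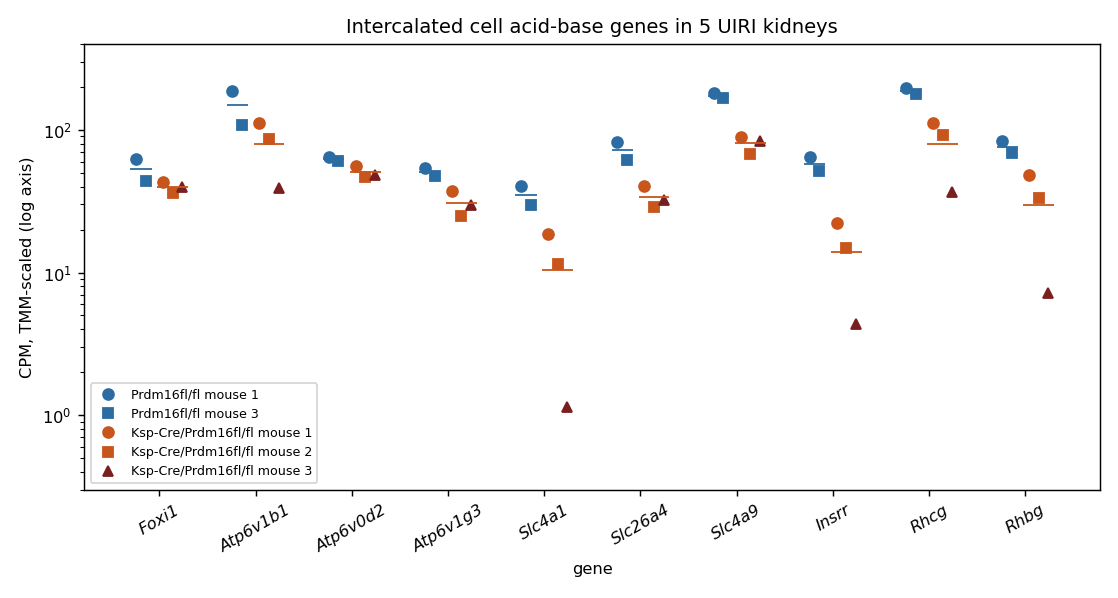
The vertical log axis gives CPM scaled by TMM, and the horizontal axis the 10 genes by role. Each point is 1 kidney and each horizontal line is a group mean (n = 2 and n = 3); Foxi1, Atp6v0d2, Atp6v1g3, Slc26a4 and Slc4a9 lie close together in the 3 Cre kidneys, while Slc4a1 runs from 18.7 down to 1.13 CPM.

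Foxi1, the transcription factor of intercalated cells (chr11:34154341-34158089, minus strand, in the coordinates of the files), had one of the smallest differences. Its level was 62.8 and 43.8 CPM in control kidneys 1 and 3 and 42.9, 36.3 and 39.8 CPM in Cre kidneys 1, 2 and 3. The Cre kidneys all lay below both controls, but the highest of them was within 1 CPM of control kidney 3. The log2 fold change was -0.43 (SE 0.18, adjusted p = 0.275) and did not pass the test. The controls differed from each other by 0.52 on the log2 scale, more than the 3 Cre kidneys did (0.24).

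Foxi1 is a forkhead protein known to activate several of the other genes, so the 250 bases before their starts were searched for 4 forkhead heptamers on both strands, namely GTAAACA, its variant GTAAATA, then ATAAACA, and last ATAAATA. RefSeq promoter sequence (GRCm38.p6) was at hand for 5 of the 10 genes. A match lay in 2 of these, Atp6v1b1 and Slc26a4, and none in those of Atp6v1g3, Foxi1 and Rhcg. At least 1 of the 4 heptamers occurred in 13.6% of 32851 promoters of the same length, so a match describes the sequence and shows no site. Both promoters with a match are shown 5′ to 3′ on the strand of the gene, with the heptamer in capitals, because one belongs to a pump subunit of all intercalated cells and the other to the exchanger of type B cells. That of Atp6v1b1 (chr6:83742767-83743016, plus strand) holds TGTTTAC, the reverse complement of GTAAACA, at 98 to 92 bases before the start, and that of Slc26a4 (chr12:31559985-31560234, minus strand) holds ATAAATA at 65 to 59 bases before it. GTAAACA occurred in 3.17% and ATAAATA in 5.17% of all promoters, on either strand.
Atp6v1b1: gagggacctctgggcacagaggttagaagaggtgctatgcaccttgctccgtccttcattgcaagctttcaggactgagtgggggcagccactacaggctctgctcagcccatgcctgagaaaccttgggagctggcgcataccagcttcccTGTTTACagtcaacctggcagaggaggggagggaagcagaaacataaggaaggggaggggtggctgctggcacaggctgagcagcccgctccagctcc
Slc26a4: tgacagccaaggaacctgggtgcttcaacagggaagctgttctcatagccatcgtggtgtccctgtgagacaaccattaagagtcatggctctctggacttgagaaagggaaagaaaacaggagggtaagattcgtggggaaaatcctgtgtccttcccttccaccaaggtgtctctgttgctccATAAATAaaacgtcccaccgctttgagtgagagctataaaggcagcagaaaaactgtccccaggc

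The V-ATPase subunits Atp6v1b1, Atp6v0d2 and Atp6v1g3 had levels below the control mean in the Cre kidneys, and none of the 3 passed the test. Atp6v1b1 (chr6:83719999-83735837, plus strand), the B1 subunit of the catalytic head whose human form is mutated in distal renal tubular acidosis, had 189 and 109 CPM in control kidneys 1 and 3. In Cre kidneys 1, 2 and 3 it had 112, 86.4 and 39.4 CPM. This was the only one of the 10 genes whose groups overlapped, since control kidney 3 lay below Cre kidney 1. Its log2 fold change was -0.91 (SE 0.44, adjusted p = 0.335).

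Atp6v0d2 (chr4:19876838-19922566, minus strand), the d2 subunit of the membrane part of the pump, had 64.9 and 60.1 CPM in the controls and 56.1, 47.1 and 48.0 CPM in Cre kidneys 1, 2 and 3. It showed the smallest difference of the 10 genes (log2 fold change -0.31, SE 0.12, adjusted p = 0.259), although the groups did not overlap. Atp6v0d2 is also expressed by macrophages. The summed level of 10 macrophage markers was 542 to 715 CPM in the control and 710 to 835 CPM in the Cre kidneys, and its part in the Atp6v0d2 values was not tested. Of these 10 markers, 8 had a log2 fold change above 0, as did 8857 of all 16394 genes tested. Gpnmb was called higher at 1.68, whereas Acp5, an enzyme shared with osteoclasts, had -0.65.

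Atp6v1g3 (chr1:138201476-138217200, plus strand), the G3 subunit of the stalk, had 54.2 and 47.6 CPM in the controls and 37.4, 25.0 and 29.7 CPM in Cre kidneys 1, 2 and 3. The groups did not overlap, and the log2 fold change of -0.73 (SE 0.19) missed the threshold (adjusted p = 0.121).

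Slc4a1 (chr11:102239646-102256107, minus strand), which encodes AE1 in the basolateral membrane of type A cells, had the widest range of the 10 genes. Its level was 40.6 and 29.7 CPM in control kidneys 1 and 3. It was 18.7 and 11.5 CPM in Cre kidneys 1 and 2 and 1.13 CPM in Cre kidney 3. The last value rests on 17 counts (95% exact Poisson interval 0.660 to 1.81 CPM, counting error only), below both other Cre kidneys and far below the controls. With all 5 libraries the log2 fold change was -1.74 (SE 0.84, adjusted p = 0.331), and without Cre kidney 3 it was -1.21 (SE 0.23, adjusted p = 0.00995).

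AE1 is also a protein of red cells, and gene counts do not separate the kidney transcript from the red cell one. Of 10 erythroid markers, 7 were tested and all 7 had a log2 fold change above 0, opposite in sign to Slc4a1. Over all genes, 8857 of 16394 were above 0. edgeR called 0 of the 7 with all libraries, with 5 higher at an unadjusted p under 0.05. DESeq2 called 5 higher, and edgeR without Cre kidney 3 called 6 higher. Over all genes, edgeR called 13 of 16394 higher, and 1253 were higher at an unadjusted p under 0.05. DESeq2 called 112 of 15440 genes higher, and edgeR without Cre kidney 3 called 231 of 16196. The summed level of the 10 was 11.5 to 13.99 CPM in the control and 45.2 to 159 CPM in the Cre kidneys. The 4 haemoglobin genes made up most of this sum, with 6.27 and 9.69 CPM in the controls and 147, 146 and 38.6 CPM in Cre kidneys 1, 2 and 3. Rhag, a red cell membrane gene related to Rhcg and Rhbg, had 0 to 8 counts per library and was not tested. The part of red cell RNA in the Slc4a1 values was not tested.

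Both transporters of type B cells were lower by similar amounts in all 3 Cre kidneys, while Insrr varied among them. Slc26a4 (chr12:31569813-31610054, minus strand), the pendrin chloride-bicarbonate exchanger, had 82.4 and 61.9 CPM in control kidneys 1 and 3 and 40.1, 28.8 and 32.4 CPM in Cre kidneys 1, 2 and 3. All 3 Cre kidneys lay well below the lower control. The log2 fold change was -1.09 (SE 0.19), with an adjusted p of 0.0579 that missed the threshold. It passed in DESeq2 (adjusted p = 3.16e-04), and without Cre kidney 3 (-1.06, adjusted p = 0.00644).

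Slc4a9, the AE4 transporter of the basolateral membrane of type B cells, fell in the Cre kidneys. It had 181 and 167 CPM in control kidneys 1 and 3 and 89.4, 67.8 and 84.2 CPM in Cre kidneys 1, 2 and 3, with means of 174 ± 10.3 CPM (SD, n = 2) and 80.5 ± 11.3 CPM (SD, n = 3). The lower control was well above the highest Cre kidney, and each group was tight. The log2 fold change was -1.11 (SE 0.15, adjusted p = 0.0412), a level 53.8% lower. Without Cre kidney 3 it was -1.14 (adjusted p = 0.00173).

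Insrr (chr3:87704215-87723408, plus strand) encodes a receptor kinase of the insulin receptor family that responds to alkaline fluid and is found in type B cells. It had 64.0 and 51.4 CPM in the controls and 22.4, 14.9 and 4.33 CPM in Cre kidneys 1, 2 and 3. The highest Cre kidney was far below the lower control, yet the spread within the group was wide. The log2 fold change of -2.05 (SE 0.57, adjusted p = 0.138) was the largest in size of the 10 genes but missed the threshold. DESeq2 gave an adjusted p of 0.00476, and without Cre kidney 3 the log2 fold change was -1.63 (adjusted p = 0.00149).

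The ammonia carriers resembled Slc4a1 and Insrr in their spread. Rhcg (chr7:79243111-79267405, minus strand), found mainly at the apical membrane, had 197 and 178 CPM in control kidneys 1 and 3 and 111, 92.1 and 36.4 CPM in Cre kidneys 1, 2 and 3. The groups did not overlap, and the log2 fold change was -1.23 (SE 0.43, adjusted p = 0.205 in edgeR and 0.0466 in DESeq2). Rhbg (chr3:88150181-88162046, minus strand), at the basolateral membrane, had 83.3 and 69.2 CPM in the controls and 48.5, 33.5 and 7.13 CPM in Cre kidneys 1, 2 and 3. Its groups did not overlap either, and the log2 fold change was -1.36 (SE 0.66, adjusted p = 0.331). Without Cre kidney 3, both carriers had an adjusted p under 0.05 but a fold change short of the threshold (Rhcg, -0.88, adjusted p = 0.00279, and Rhbg, -0.89, adjusted p = 0.0110).

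The genes divided evenly by their level in Cre kidney 3. In 5 of them this kidney lay at least 1 below the mean of Cre kidneys 1 and 2 on the log2 scale, and 8.94% of all genes tested did. These were Slc4a1 at -3.68, a level 12.8-fold lower, Rhbg at -2.50, Insrr at -2.07, Rhcg at -1.47 and Atp6v1b1 at -1.32. In the other 5 the same difference was small, at 0.11 for Slc4a9, 0.014 for Foxi1, -0.042 for Atp6v1g3, -0.068 for Slc26a4 and -0.097 for Atp6v0d2. Cre kidney 3 was thus not lower for every intercalated cell gene: the factor Foxi1, both type B transporters and the d2 and G3 pump subunits were at the level of its group, while genes of type A cells, of type B cells, of the pump and of ammonia transport were all among those that were lower. The median difference of Cre kidney 3 was -0.71 for the 10 genes and -0.0053 over all genes tested. For marker lists described below it was -1.21 in the distal convoluted tubule, -1.08 in the thick ascending limb and -1.01 in the proximal tubule. It was -0.47 for principal cell markers, -0.26 for other intercalated cell genes and 0.092 for common V-ATPase subunits. A lower level in Cre kidney 3 was thus shared by other tubule lists. The division of the 10 genes was seen after the values were known and was not tested.

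**Figure D2:**
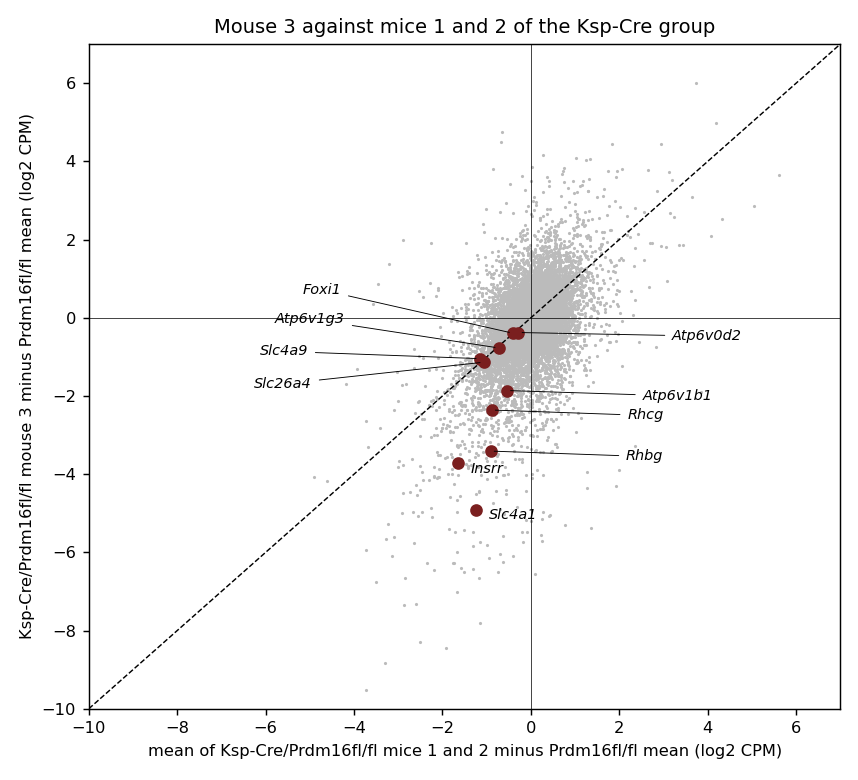
Each grey dot is 1 of 16394 genes and each dark red dot 1 of the 10 acid-base genes, with the difference from the control mean (log2 CPM) for the mean of Cre kidneys 1 and 2 on the horizontal axis and for Cre kidney 3 on the vertical axis. The dashed line marks equal differences; 5 of the genes lie on or near it and 5 lie below it, the farthest being Slc4a1.

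Leaving out Cre kidney 3 made the calls more frequent and most of the differences smaller in size, though not those of Slc4a9 and Foxi1. The median log2 fold change of the 10 genes became -0.88. In 9 of the 10 both remaining Cre kidneys lay below both controls, against 30.4% of all genes. These 9 already did so with Cre kidney 3 included, so leaving it out could hardly lower their number. edgeR then called 4 of them lower, Slc4a1, Slc26a4, Slc4a9 and Insrr, and 3.10% of all genes. The genes not called were Foxi1 (-0.43, adjusted p = 0.122), Atp6v1b1 (-0.58, adjusted p = 0.124), Atp6v0d2 (-0.27, adjusted p = 0.140), Atp6v1g3 (-0.70, adjusted p = 0.0298), Rhcg and Rhbg.

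Levels were also ordered per kilobase of merged exon length, the only scale on which genes were compared with each other. In the control kidneys the mean level was highest for Rhcg (88.2 CPM per kilobase), Atp6v1b1 (75.4), Slc4a9 (49.4) and Rhbg (38.8). Then came Atp6v1g3 (27.0 CPM per kilobase), Foxi1 (22.6), Slc26a4 (16.1), Atp6v0d2 (15.4), Insrr (10.9) and Slc4a1 (7.72). Neighbours whose ranges overlapped were Rhcg and Atp6v1b1, Atp6v1g3 and Foxi1, and Slc26a4 and Atp6v0d2.

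In the Cre kidneys the order began with Atp6v1b1 (40.2 CPM per kilobase), Rhcg (37.7), Slc4a9 (22.8) and Foxi1 (16.9). It went on with Atp6v1g3 (16.3 CPM per kilobase), Rhbg (15.1), Atp6v0d2 (12.4), Slc26a4 (7.54), Insrr (2.61) and Slc4a1 (2.30). Foxi1 stood 4th of the 10 here and 6th in the controls, but its range overlapped that of Atp6v1g3 in both groups. Insrr and Slc4a1 were last in both groups.

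The levels were next set against that of Foxi1 within each kidney. The ratio of each other gene to Foxi1 needs no scaling between libraries. It was taken after the values were seen. In 6 of the 9 genes, every Cre kidney had a lower ratio than both controls, and this held for 3.90% of all genes tested. For Slc26a4 the log2 ratio was 0.39 and 0.50 in control kidneys 1 and 3 and -0.097, -0.33 and -0.30 in Cre kidneys 1, 2 and 3. For Slc4a9 it was 1.53 and 1.93 in the controls and 1.06, 0.90 and 1.08 in the Cre kidneys. Both type B transporters thus stood lower relative to Foxi1 by similar amounts, with differences of the means of -0.69 and -0.72. The 2-sided exact permutation test over the 10 ways of assigning the libraries gave p = 0.1 for each, the smallest p it can give.

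The difference of the mean log2 ratio was -2.06 for Slc4a1, -1.94 for Insrr, -1.34 for Rhbg and -0.97 for Rhcg (exact permutation p = 0.3, 0.2, 0.3 and 0.3), and the ratios of these 4 genes did not overlap between the groups. Cre kidney 3 made up much of these values, since without it they were -0.83, -1.24, -0.50 and -0.48, while Slc26a4 and Slc4a9 had -0.66 and -0.75. The V-ATPase subunits overlapped. Their differences were -0.58 for Atp6v1b1 (exact permutation p = 0.5), -0.34 for Atp6v1g3 (p = 0.3) and 0.091 for Atp6v0d2 (p = 0.8). Without Cre kidney 3 that of Atp6v1b1 was -0.13, without control kidney 3 that of Atp6v1g3 was -0.17, and without control kidney 1 that of Atp6v0d2 was -0.11. Over the 9 ratios the lowest adjusted p was 0.386.

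**Figure D3:**
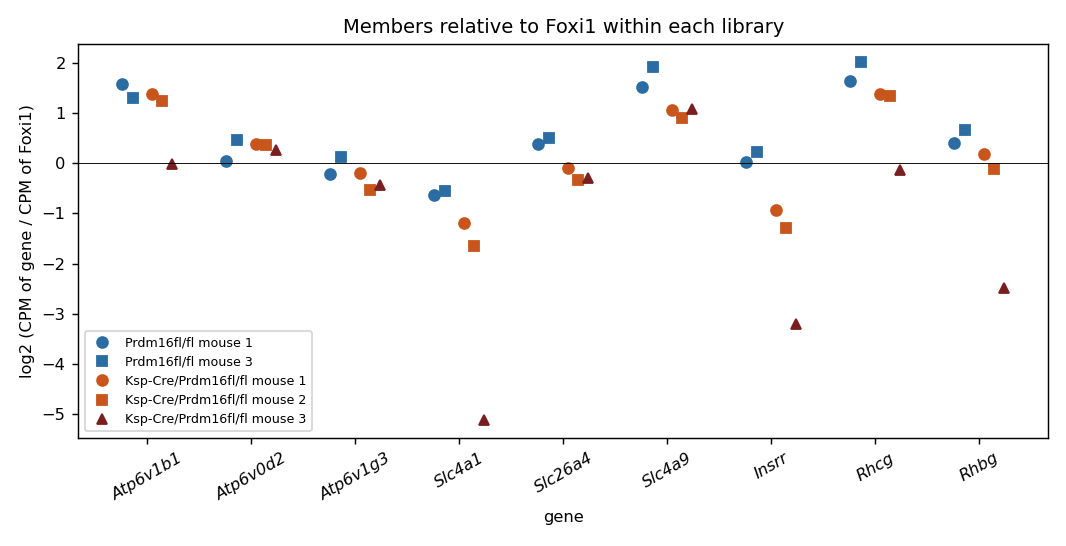
The vertical axis is the log2 of the CPM of a gene over the CPM of Foxi1 in the same library, and the horizontal axis the 9 other genes, with 1 point per kidney. The 3 Cre points of Slc26a4 and Slc4a9 lie together below both controls, the points of Atp6v0d2 mix, and Slc4a1 reaches -5.12 in Cre kidney 3.

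The V-ATPase subunits listed here for intercalated cells have paralogs used by most cells, and 5 such pairs were compared within each kidney. Counts from cortex do not show which cells the reads of a subunit came from. A ratio is therefore not a measure of intercalated cells alone. The a4 to a1 and the C2 to C1 ratios were lower in every Cre kidney, and those of the pairs that include Atp6v1b1, Atp6v0d2 and Atp6v1g3 overlapped. The log2 ratio of Atp6v1b1 to Atp6v1b2, both per kilobase, was -0.68 and -1.36 in control kidneys 1 and 3 and -1.11, -1.59 and -2.97 in Cre kidneys 1, 2 and 3. The difference of the means was -0.87 (exact permutation p = 0.4), and Cre kidney 1 was above control kidney 3. It was -0.33 without Cre kidney 3 and -0.53 without control kidney 1. For Atp6v0d2 to Atp6v0d1 the difference was -0.10 (exact permutation p = 0.9), and 0.042 without Cre kidney 3. For Atp6v1g3 to Atp6v1g1 it was -0.28 (exact permutation p = 0.4), with -0.12 without Cre kidney 3 and -0.094 without control kidney 1.

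In the pairs without one of the 10 genes, the log2 ratio of Atp6v0a4 to Atp6v0a1 was 2.69 and 2.62 in the controls and 1.95, 2.13 and 1.86 in Cre kidneys 1, 2 and 3. That of Atp6v1c2 to Atp6v1c1 was -1.94 and -1.95 in the controls and -2.98, -3.62 and -3.96 in the Cre kidneys. The differences of -0.68 and -1.58 each had the smallest exact permutation p of 0.1, adjusted over the 5 pairs to 0.25, and were -0.61 and -1.36 without Cre kidney 3. Atp6v0a1 itself was higher in the Cre kidneys by 0.33 on the log2 scale (adjusted p = 0.418), and Atp6v1c1 differed by 0.038 (adjusted p = 0.879), neither past the test. The common subunits as a list of 17 had a median log2 fold change of -0.16, between Atp6v1f at -0.67 and Tcirg1 at 0.50. Of the 17, 14 had a log2 fold change below 0, against 46.0% of all genes. Every Cre kidney lay below both controls in 8 (21.3% of all genes) and above both in 2 (3329 of 16394 genes). Without Cre kidney 3, both remaining Cre kidneys lay below both controls in 13 (30.4% of all genes). edgeR and DESeq2 each called 0 of the 17. At an unadjusted p under 0.05 in edgeR, 6 were lower (11.2% of all genes) and 1 was higher (1253 of 16394 genes).

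**Figure D4:**
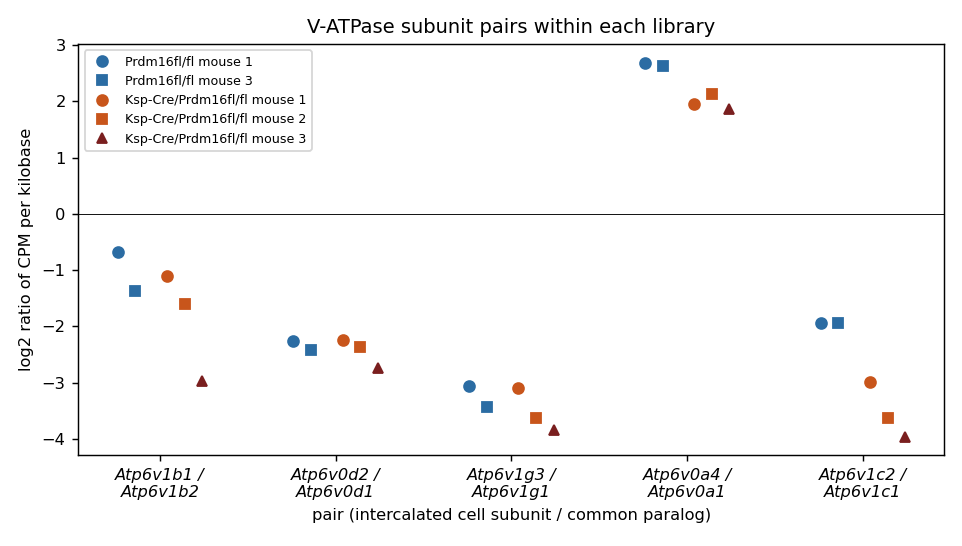
The vertical axis is the log2 ratio of CPM per kilobase of the intercalated cell subunit to its common paralog in 1 kidney, and the horizontal axis the 5 pairs. The a4 and C2 pairs separate the groups, and the B1 pair is lowest in Cre kidney 3 at -2.97.

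A further 16 genes known from intercalated cells were also mostly lower, by less than the 10 acid-base genes. Of these, 14 had a log2 fold change below 0, against 46.0% of all genes. In 12 every Cre kidney was below both controls, against 21.3% of all genes. The median log2 fold change of the 16 was -0.59, and none was called in edgeR. At an unadjusted p under 0.05, 7 were lower (11.2% of all genes). DESeq2 called 1 lower, Atp6v1c2 (2.47% of all genes). The values ran from -1.60 for Clnk, an adaptor protein (adjusted p = 0.115), to 0.38 for Dmrt2, a transcription factor of type A cells (adjusted p = 0.494). Without Cre kidney 3 their median was -0.48 and 2 were called lower, Atp6v1c2 and Clnk, against 3.10% of all genes.

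Other genes of type A cells varied in their course. Aqp6, a channel of intracellular vesicles in type A cells, had 47.3 and 42.0 CPM in control kidneys 1 and 3, 41.9 and 30.9 CPM in Cre kidneys 1 and 2, and 7.86 CPM in Cre kidney 3, so that, as with Slc4a1, all 3 lay below the controls and the last by far the most. Kit, a receptor kinase, had 39.1 and 39.5 CPM in the controls and 28.9, 27.8 and 41.8 CPM in the Cre kidneys, where Cre kidney 3 was the highest of the 5. Dmrt2 had 8.09 and 6.601 CPM in the controls and 12.4, 8.57 and 7.73 CPM in the Cre kidneys, which overlapped. The Slc26a7 exchanger and the factor Hmx2 did not overlap and had log2 fold changes of -0.81 and -0.89 (adjusted p = 0.213 and 0.246).

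**Figure D5:**
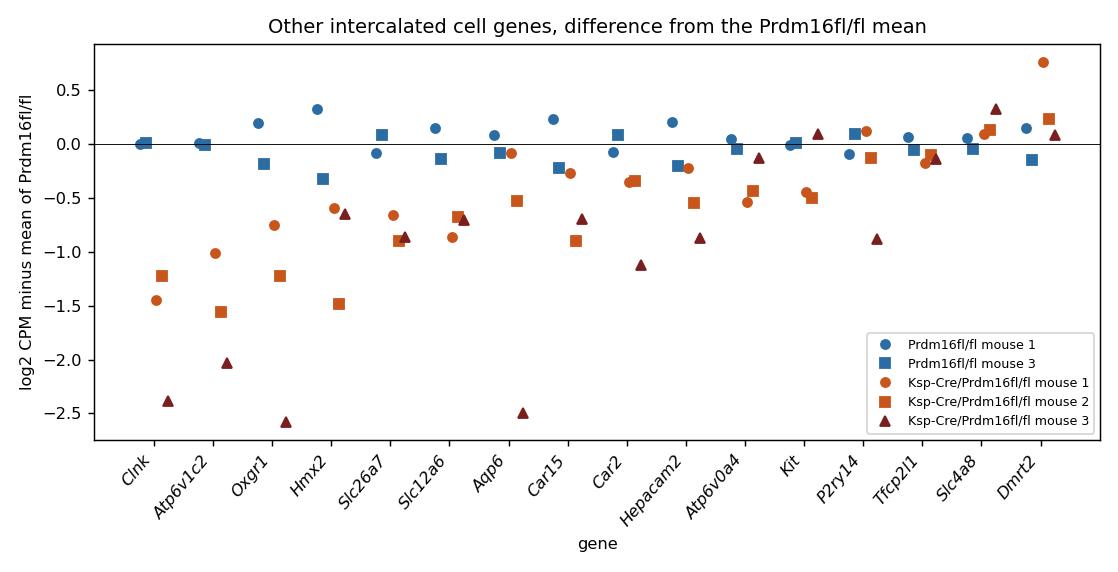
The vertical axis is log2 CPM minus the mean of the control kidneys, and the horizontal axis 16 other intercalated cell genes in order of their log2 fold change, with 1 point per kidney. Points of the Cre kidneys lie below 0 for most genes, and Cre kidney 3 is the lowest of the 3 for Clnk, Atp6v1c2, Oxgr1 and Aqp6 but not for Slc26a7 or Kit.

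The balance of the cell types depended on the gene that stood for type A cells. Only the transporters Slc26a4 and Slc4a9 stood for type B cells, and Insrr was not included. The mean log2 CPM of Slc26a4 and Slc4a9 minus that of Slc4a1 was 1.59 and 1.77 in control kidneys 1 and 3 and 1.68, 1.94 and 5.51 in Cre kidneys 1, 2 and 3. Only the last kidney lay away from the rest (difference of means 1.36, exact permutation p = 0.6), and without it the difference was 0.13. Against the mean of Aqp6, Kit, Hmx2, Dmrt2 and Slc26a7, the balance was 3.21 and 3.12 in the controls and 2.47, 2.47 and 2.84 in the Cre kidneys. The type B transporters were lower by this measure in every Cre kidney (difference of means -0.57, exact permutation p = 0.2, where the smallest p possible was 0.1, and -0.69 without Cre kidney 3). The 2 measures thus differed in sign.

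Markers of the neighbouring principal cells and of other nephron segments had log2 fold changes mostly below 0 as well. All 10 principal cell markers had a log2 fold change below 0 (46.0% of all genes), with a median of -0.64 (-0.53 without Cre kidney 3). In 5 every Cre kidney lay below both controls (21.3% of all genes), and the other 5 overlapped. edgeR called 0 of the 10, with 5 lower at an unadjusted p under 0.05 (11.2% of all genes). Both DESeq2 and edgeR without Cre kidney 3 called 1 lower, Aqp4, against 2.47% and 3.10% of all genes. The 10 markers ran from Aqp4 at -2.31 to Aqp2, the vasopressin-regulated water channel, at -0.21. The mean log2 CPM of the 10 acid-base genes minus that of the 10 principal cell markers was 1.23 and 0.90 in control kidneys 1 and 3 and 0.84, 0.85 and 0.14 in Cre kidneys 1, 2 and 3. The groups did not overlap, although control kidney 3 was close to Cre kidneys 1 and 2 (difference of means -0.46, exact permutation p = 0.3). The difference was -0.22 without Cre kidney 3 and -0.29 without control kidney 1.

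Median log2 fold changes were -0.78 for 5 distal convoluted tubule markers, -0.71 for 5 thick ascending limb markers and -1.40 for 8 proximal tubule markers. Of the proximal tubule markers edgeR called 2 lower, Miox (-2.23) and Acsm2 (-1.56), against 0.628% of all genes. In all 8 every Cre kidney lay below both controls (21.3% of all genes). DESeq2 called 6 of the 8 lower, as did edgeR without Cre kidney 3, against 2.47% and 3.10% of all genes. The distal convoluted tubule markers ran from Pvalb at -3.93 to Trpv5, an apical calcium channel, at 0.79. Pvalb had 186 and 153 counts in control kidneys 1 and 3 and 32, 7 and 0 in Cre kidneys 1, 2 and 3. Without Cre kidney 3 edgeR called Pvalb lower (-3.37, adjusted p = 0.00176), as were 3.10% of all genes. In that fit it called Trpv5 higher (1.10, adjusted p = 0.00669), as were 231 of 16196 genes. Without control kidney 1 the median of this list was -0.30, and that of the thick ascending limb list was -0.44 without Cre kidney 3 and -0.43 without control kidney 3. The summed proximal tubule markers were 8712 to 9446 CPM in the control and 2183 to 3594 CPM in the Cre kidneys. With all libraries, a median log2 fold change below 0 was thus shared by the marker lists of every tubule segment examined, and their part in the values of the acid-base genes was not tested. The 8 tubular injury markers moved the other way, with a median of 1.18, sums of 14958 to 15520 CPM in the control and 32067 to 38051 CPM in the Cre kidneys, and Krt19 called higher at 1.97.

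Genes whose profile over the 5 libraries was most like that of Foxi1, by the root mean square difference of log2 levels centred on their mean, were Sars2 (0.057), Acacb (0.060), Kctd12b (0.064), Pygm (0.065) and Sv2a (0.071), out of 13667 genes compared. Most like the median profile of the 10 acid-base genes were Slc2a12 (0.099), Prodh2 (0.101), Gja5 (0.111), Josd2 (0.118) and Igfbp5 (0.119). None of these genes was called, and the likeness is over 5 libraries only.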

How the data were processed

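RNA-seq of kidneys from 2 Prdm16fl/fl and 3 Ksp-Cre/Prdm16fl/fl mice after UIRI was analysed, grouped by the genotype in the sample labels. After a read quality filter, the authors deposited the raw count per gene. The submitters' processing notes name featureCounts 2.0.1. The authors also deposited TPM and FPKM made from these counts, which were not used for any test. The aligner and strand setting are not given in the sources used here. The notes name a human build, but the genes and coordinates in the files are of mouse and differ from GRCm38, so positions are as deposited. Broken lines, which affected 5 genes, were joined again. No genes of the mitochondrial chromosome were analysed here. None of the 10 genes overlapped another listed gene, and near-identical copies were not separated.

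Counts were filtered with filterByExpr, scaled with TMM and tested without covariates by the quasi-likelihood test of edgeR 4.0.16 in R 4.3.3, with p-values adjusted by the Benjamini-Hochberg method over all 16394 genes. CPM are per 1000000 scaled counts. The edgeR p-values set each difference against the spread between these mice, with that spread estimated in part from all genes. Ratios and balances used an exact 2-sided permutation test over the 10 ways of assigning the libraries, with p adjusted over the family where stated. Alternatives were DESeq2 1.42.0 on the same genes, other filters and scalings, the mouse number as a block and leaving out each mouse. The test code was first tested on simulated data. No pair of libraries was a duplicate, since the chi-square between their counts was at least 9.89 per degree of freedom. The precision of each value is limited by 14939040 to 16425161 counts per library and by the number of mice.

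The acid-base genes, gene lists and comparisons were chosen with earlier results of these data known. Genes named are all 10 acid-base genes, the called genes and the highest and lowest log2 fold change of each list, with a few left unprinted, and the 5 genes nearest to Foxi1 and to the median profile of the 10, among genes averaging 1 or more on the log2 CPM scale. Others were chosen after their values were seen. Promoters came from RefSeq (GRCm38.p6). Tables and figures were made with Python 3.11.15, pandas 2.3.3 and matplotlib 3.10.9.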

Additional observations from a re-analysis of the deposited data

How the results depend on the processing

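With 2 and 3 mice the calls depended on single libraries. All 10 log2 fold changes of the acid-base genes stayed below 0 in the 12 alternatives run. In 9 of the 10 every Cre kidney lay below both controls, so leaving out 1 kidney could hardly turn their sign. The alternatives share the same libraries, and this constancy is no separate evidence of direction. Foxi1 came nearest to 0, at -0.14 without control kidney 1. Genes called higher and lower numbered 13 and 103 in the fit reported above, with 1 of the 10 among the lower. They numbered 112 and 381 with DESeq2 (4 of the 10), 37 and 250 without a filter (2 of the 10, Slc26a4 and Slc4a9) and 12 and 34 with library size scaling (0 of the 10), which moved the median over all genes from 0.038 to 0.15 (log2). A minimum of 10 counts in every library gave 14 and 123, DESeq2 size factors in edgeR 13 and 107, and upper quartile scaling 13 and 77, each with 1 of the 10. With the mouse number as a replicate block, 0 genes were called higher, 0 lower and 0 of the 10, with 2061 genes at an unadjusted p under 0.05. Deviations of same-numbered mice correlated at -0.0033 and -0.020. With 2 controls, the deviations of control kidney 3 are those of control kidney 1 with the sign reversed. These correlations therefore cannot show whether the numbers mark a shared litter or batch. Under the block Slc4a9 had a log2 fold change of -1.003 (adjusted p = 0.178).

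Leaving out each kidney in turn gave 0 to 231 genes called higher, 0 to 502 lower and 0 to 4 of the 10. Calls were made only when Cre kidney 3 was left out, 231 higher and 502 lower. Without control kidney 1 or 3, where the lone control is assumed to vary like the other group, or without Cre kidney 1 or 2, edgeR called none. An unadjusted p under 0.05 was reached there by 1749, 1330, 2514 and 2298 genes. The log2 fold change of Slc4a9 stayed between -1.19 and -1.003 in all 12 alternatives. The signs that turned were the Atp6v0d2 to Atp6v0d1 balance (-0.21 to 0.042 with 1 kidney left out, the latter without Cre kidney 3) and the ratio of Atp6v0d2 to Foxi1 (-0.11 to 0.30, the former without control kidney 1). Of all values of the 10 genes, only that of Slc4a1 in Cre kidney 3 rested on fewer than 65 counts.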
